A study of Mus musculus with 24 samples.

Results

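Within 24 pools of mouse blastocysts, the 8 pools with the highest Hspa1a level were set against the 8 pools with the lowest, and all other genes were compared between them. Pools were ranked by the log2 processed signal of the Hspa1a probe minus the 75th percentile of the array, so that a level of 0 is that percentile. These Hspa1a levels chose the groups and are given as a description, with no test: the members were chosen by them. RNA came from frozen expanded blastocysts, the cavity-bearing embryos that precede implantation, and 1 one-colour Agilent array was used per pool. The series title concerns bisphenol A, a plastic monomer, and membrane estrogen receptors. A pool held 15 embryos, or 20 for HC6, and the 6 codes from HC1 to HC6 were given to 4 pools each. Neither the treatment behind each code nor the control is given in the sources used here, and no strain or embryo age is stated.

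The high pools were HC4 replicates 1, 2 and 4, HC6 replicates 2, 3 and 4, HC3 replicate 4 and HC5 replicate 1. The low pools were HC1 replicates 1 and 3, HC2 replicates 2 and 3, HC5 replicates 3 and 4, HC3 replicate 3 and HC6 replicate 1. The other 8 pools, called middle pools here, were shown and not fitted. HC1 and HC2 gave 0 high pools and HC4 gave 0 low pools, so condition and Hspa1a group were partly confounded. Whether pools of a code had separate parents is not stated in the labels, and the p-values therefore cover variation from pool to pool, which may be technical.

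Hspa1a and Hspa1b encode the stress-inducible Hsp70 chaperones, which bind unfolded proteins and hold them until they refold. Their intronless genes are neighbours on mouse chromosome 17. Heat shock factor 1 drives them through heat shock elements, inverted repeats of the unit GAA, and they are among the first genes transcribed when the mouse embryo genome switches on. Hsp70 works with Hsp40 (Dnaj) partners that deliver clients and with nucleotide exchange factors such as Bag3 and Hsph1.

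The promoters of both genes are shown because they let a reader see how alike the 2 genes are upstream. These are the 250 bases before each start from RefSeq on GRCm38.p6, read on the minus strand, chr17:34972157-34972406 for Hspa1a and chr17:34959239-34959488 for Hspa1b. Capitals mark the one match to GAANNTTC, an inverted pair of heat shock units.
Hspa1a: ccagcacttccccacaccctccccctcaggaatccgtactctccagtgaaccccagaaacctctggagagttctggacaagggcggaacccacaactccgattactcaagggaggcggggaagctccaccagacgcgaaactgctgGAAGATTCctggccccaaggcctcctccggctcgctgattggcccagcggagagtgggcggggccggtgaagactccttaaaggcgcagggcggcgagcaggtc
Hspa1b: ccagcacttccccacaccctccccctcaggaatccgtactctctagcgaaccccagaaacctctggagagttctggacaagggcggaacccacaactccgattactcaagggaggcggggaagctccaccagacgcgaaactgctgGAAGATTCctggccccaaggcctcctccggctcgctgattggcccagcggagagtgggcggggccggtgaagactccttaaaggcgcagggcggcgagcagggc
The windows share 247 of 250 bases. They differ by C44T, T47C and T249G, with the Hspa1a base first and positions counted from 1 at the 5′ end. The capitals begin 104 bases before the start in both genes. An inverted pair in either order (GAANNTTC or TTCNNGAA, which can overlap, both strands being covered since each is its own reverse complement) lay in 12.8% of all 32851 promoter windows and in those of 18 of 70 heat shock list genes. A triple (GAANNTTCNNGAA or TTCNNGAANNTTC) lay in 0.4657% of windows and in those of 3 of the 70, namely Hspe1, Hspd1 and Dnajb6. The windows belong to 27025 genes and a gene can have several, so shares of windows and counts of genes are unlike measures. The matches of Hspe1 and Hspd1 are the same bases, read on opposite strands. Such a match is a run of letters and not a measured binding site. The array probes of the 2 genes match at no more than 21 of 60 bases in any ungapped alignment, and their longest shared run is 5 bases.

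Hspa1a spanned 5.98 log2 units over the 24 pools. In the high pools its level was 1.87 in HC4 replicate 2, 1.83 in HC6 replicate 4 and 1.72 in HC6 replicate 3. The other 5 high pools lay between 0.25 and 0.34, and a gap of 1.37 separated them from the top 3. The low pools had a lowest, median and highest level of -4.11, -2.35 and -1.31. High pools averaged 0.86 ± 0.78 and low pools -2.61 ± 0.96 (SD, n = 8 each), a difference of 3.47 on the log2 scale. The Hspa1a probe, at chr17:35106766-35106825 on mm9, was well above background on 8 of 8 high arrays and on 4 of 8 low arrays. With dim low values raised to the lowest signal well above background on their array, Hspa1a was 8.46-fold higher in the high pools under this normalization. Over only the arrays where it was well above background, the high mean was 6.56-fold higher.

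The lower bound of the high group was not a break in the data. HC4 replicate 1, the last high pool, stood at 0.25 and HC2 replicate 1, the first middle pool, at 0.21. HC3 replicate 2, the last middle pool, stood at -1.02 and HC1 replicate 3, the first low pool, at -1.31. HC6 held both ends of the ranking, with 3 high pools at 0.34, 1.72 and 1.83 and replicate 1 at -4.11. The difference was 1.72 after normexp background correction (offset 50) with quantile normalization and 2.14 in the authors' deposited table.

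**Figure D1:**
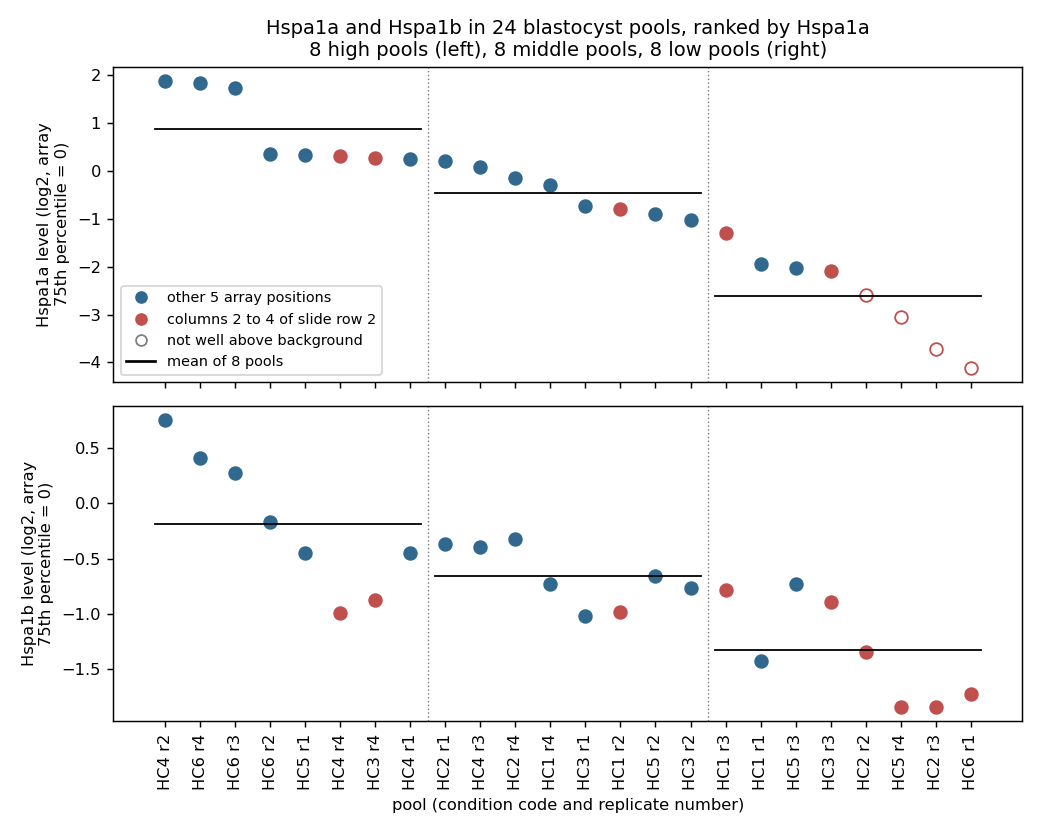
Levels of Hspa1a (top) and Hspa1b (bottom) in each of 24 pools, on the log2 scale with the array's 75th percentile at 0; pools run from highest to lowest Hspa1a, lines are means of 8 pools, colour marks array position and open points are not well above background. Hspa1a ranges from 1.87 in HC4 replicate 2 to -4.11 in HC6 replicate 1, and 6 of 8 low pools lie in columns 2 to 4 of slide row 2.

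The arrays lay on 3 slides of 2 rows and 4 columns, and array position moved with the Hspa1a groups. Columns 2 to 4 of row 2 held 2 of 8 high pools (HC3 replicate 4 and HC4 replicate 4), 1 of 8 middle pools (HC1 replicate 2) and 6 of 8 low pools. This set of positions was picked after the values were seen. Hspa1a averaged -1.90 over the 9 pools there and -0.03 over the 15 pools elsewhere. In the fit over all 24 arrays, 5232 genes outside the heat shock lists (28.6% of genes tested) differed between those positions and the rest at adjusted p under 0.05 (limma, Benjamini-Hochberg). With condition and slide as covariates that share was 27.8%. Results below are therefore also given with array position as a covariate and within each set of positions. The embryos of a pool and the place of its array cannot be told apart.

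Signal strength was compared between the groups over whole arrays. The share of spots well above background was 45.8% ± 2.70 in high pools and 43.2% ± 3.32 in low pools (SD, n = 8 each; exact permutation p = 0.101, two-sided, adjusted 0.201 over 2 measures). The 75th percentile of the processed signal was 136 ± 28.0 in high pools and 116 ± 41.0 in low pools (exact permutation p = 0.268, adjusted 0.268). Over all 24 arrays, 38.6% to 49.7% of spots were well above background, and the number of arrays limits the precision.

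Among the heat shock genes, which share the pathway of the ranking gene and were described without a test, Hspa1b differed most. Its lowest, median and highest levels were -0.99, -0.31 and 0.75 in high pools, against -1.84, -1.38 and -0.73 in low pools. The high pools averaged 1.13 higher (2.19-fold; 95% interval 0.58 to 1.69), and the ranges overlapped. That difference was 0.60 with normexp and quantile normalization, 0.71 in the authors' deposited table and 0.73 without the 3 pools of highest Hspa1a. HC4 replicate 4 and HC3 replicate 4, the high pools in columns 2 to 4 of row 2, were the 2 lowest high pools for Hspa1b at -0.99 and -0.87. In the other 5 positions Hspa1b was between -0.45 and 0.75 in 6 high pools and was -0.73 and -1.42 in 2 low pools. With array position as a covariate the Hspa1b difference was 0.80 ± 0.26 (SE), and that of Hspa1a was 3.07. Over 24 pools, which also share array position and condition, Pearson's r between Hspa1a and Hspa1b was 0.903 and Spearman's rho 0.808.

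The other 77 heat shock list genes that passed the background filter had a median difference of 0.07, with 55 higher and 22 lower in the high pools. Over all genes tested the median was 0.03 and 57.6% were higher. The 95% interval lay above 0 for 8 of the 77 and below 0 for 2, beside 7.99% and 7.57% of all genes tested. It stayed within 2-fold for 73 and within 1.5-fold for 66, beside 86.0% and 64.2% of all genes tested.

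The major chaperones showed small differences. Hspa8, the constitutive Hsp70, averaged 7.56 ± 0.20 in high pools and 7.35 ± 0.19 in low pools (SD, n = 8 each), a difference of 0.20 (interval -0.01 to 0.42). Hspa4l, an Hsp110 family member, differed by 0.21 (-0.08 to 0.51), and Hsph1, the Hsp110 exchange factor, by 0.12 (-0.10 to 0.34). Dnajb1, the inducible Hsp40, averaged 4.54 ± 0.12 in high pools and 4.38 ± 0.25 in low pools, a difference of 0.15 (-0.06 to 0.36). Bag3 differed by 0.09 (-0.15 to 0.33).

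Hsp90aa1, the inducible Hsp90, stood at 8.27 ± 0.18 in high pools and 8.32 ± 0.17 in low pools (SD, n = 8 each), a difference of -0.05 (interval -0.24 to 0.15). Hspb1, the small heat shock protein Hsp25, differed by 0.18 (-0.03 to 0.39). The mitochondrial pair Hspd1 and Hspe1 (Hsp60 and Hsp10) differed by 0.04 (-0.07 to 0.16) and 0.10 (-0.02 to 0.23). Hsf1, the stress-responsive heat shock factor, differed by -0.14 (-0.35 to 0.07), and Hsf2, a second factor of that family, by 0.17 (-0.12 to 0.45). None of these 11 intervals excluded 0, and the highest upper bound among them was the 0.51 of Hspa4l. With array position as a covariate, Hspa8 differed by 0.07, Dnajb1 by 0.10, Hsp90aa1 by -0.12 and Hspb1 by 0.13.

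Of the remaining heat shock genes 4 are described, chosen after their values were seen. Dnaja4, an Hsp40, averaged -2.53 ± 0.33 in high pools and -3.36 ± 0.77 in low pools (SD, n = 8 each), and its difference of 0.83 (interval 0.23 to 1.43) was 0.84 with array position as a covariate but 0.19 with normexp and quantile normalization. Hspb9, a small heat shock protein of testis, differed by -0.78 (-1.45 to -0.11), which was -0.38 with array position as a covariate, -0.82 within the other positions, 0.06 within columns 2 to 4 of row 2 and -0.13 with normexp and quantile normalization. The Hspb9 probe was well above background on 2 of 8 high and 3 of 8 low arrays. Hspa12a, a distant Hsp70 relative, differed by 0.59 (-0.48 to 1.66), by 0.16 with normexp and quantile normalization and by 1.64 with condition as a covariate. With array position as a covariate its difference was 0.45. The high pool HC5 replicate 1 was at 0.10 for Hspa12a, and without it the difference was 0.25, or 0.22 with the position covariate. The Hspa12a signal exceeded background clearly on 6 high and 3 low arrays. Dnajb6, an Hsp40 needed in the mouse placenta, averaged 4.81 ± 0.29 in high pools and 4.38 ± 0.40 in low pools; its difference of 0.43 (0.07 to 0.78) was 0.11 with array position as a covariate.

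**Figure D2:**
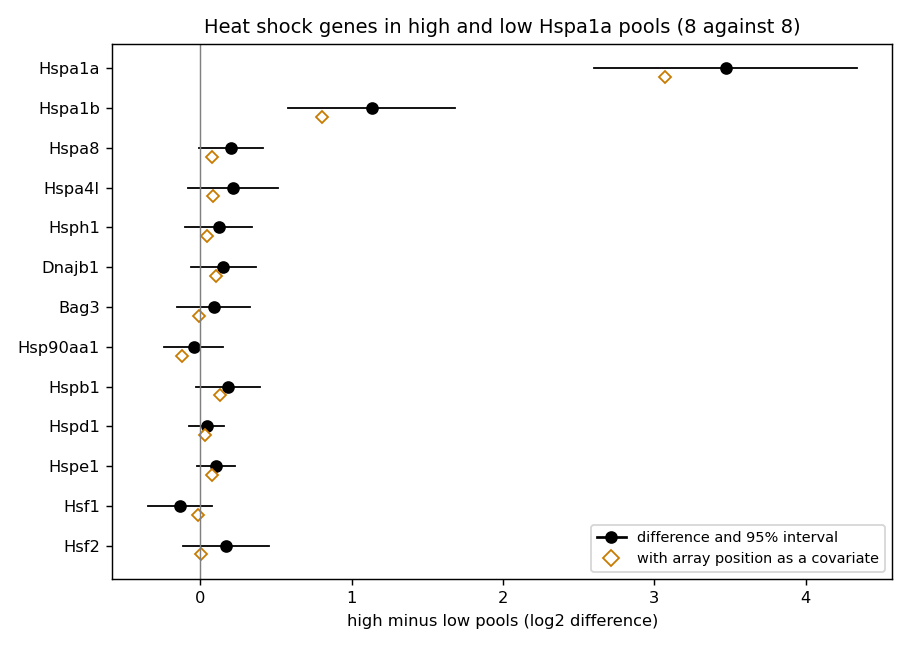
Difference between 8 high and 8 low pools (log2) for Hspa1a, Hspa1b and 11 other heat shock genes, with 95% intervals (black); diamonds are the same difference with array position as a covariate. Hspa1a (3.47) and Hspa1b (1.13) stand to the right, and the intervals of the other 11 genes include 0.

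Across the rest of the genome, 0 of 18318 genes outside the heat shock lists (0%) passed Benjamini-Hochberg adjustment at 0.05 in either direction (limma, 8 high against 8 low; smallest adjusted p 0.140). At an unadjusted p under 0.05, 1464 genes (7.99%) were higher and 1386 (7.57%) lower in the high pools. The 95% interval was within 2-fold for 86.0% of genes and within 1.5-fold for 64.2%. Leaving out HC4 replicate 4, a high pool in columns 2 to 4 of row 2, gave 83 higher and 124 lower calls; leaving out each of the other 15 pools gave 0. With the Hspa1a level as a number over all 24 arrays, 1110 genes (6.06%) were called higher and 1114 (6.08%) lower with rising Hspa1a. That count was 0 in either direction without the 4 arrays where Hspa1a was not well above background, and 0 with array position as a covariate. With condition as a covariate it was 1 higher and 4 lower.

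Differences of the 2850 genes at unadjusted p under 0.05 were then set beside the values with array position as a covariate; the contrast of groups and that of positions share the same arrays. With position as a covariate 530 genes were higher (2.89%) and 625 lower (3.41%) at unadjusted p under 0.05, and the smallest adjusted p was 0.630; 52.2% of all genes tested were then higher. The median size of the difference over the 2850 genes was 0.40 without the covariate and 0.23 with it, and 836 of them kept an unadjusted p under 0.05 in the same direction.

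Single pools were then compared by array position. Each pool was scored by the share of the 2850 genes for which it lay on the high side of the midpoint between the 2 group means, a description of pools that partly chose those genes. The 6 high pools outside columns 2 to 4 of row 2 had shares from 84.1% to 93.6%, whereas HC4 replicate 4 and HC3 replicate 4, inside them, had 34.6% and 38.4%. The 6 low pools inside had shares from 9.28% to 23.04%, whereas HC1 replicate 1 and HC5 replicate 3, outside, had 65.6% and 36.1%. Middle pools, which did not choose the genes, had 75.7% to 89.5% outside and 19.8% in HC1 replicate 2, the one inside.

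**Figure D3:**
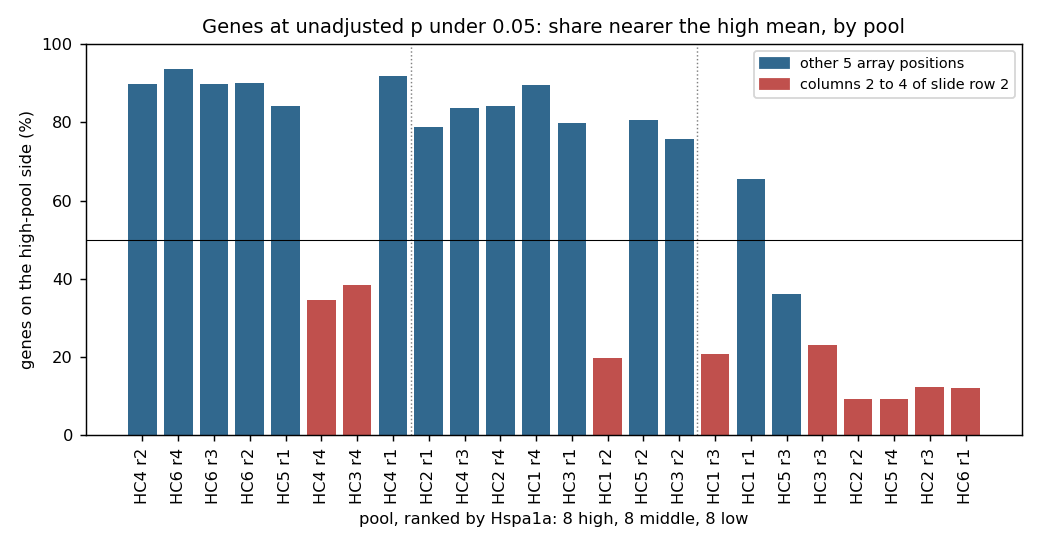
Percent of the 2850 genes at unadjusted p under 0.05 for which each pool lay on the high side of the midpoint between the 2 group means; pools run from highest to lowest Hspa1a, and colour marks array position. The 9 pools in columns 2 to 4 of row 2 have shares from 9.28% to 38.4%, the 2 high pools there being highest. The 2 low pools outside have 36.1% and 65.6%. High and low pools helped choose the genes.

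The 10 genes of smallest p in each direction, clearly above background on 6 or more of 8 arrays of the brighter group, are given as values since none passed adjustment. Cdr2, an antigen of paraneoplastic cerebellar degeneration, had a lowest, median and highest level of -1.29, -0.75 and -0.58 in high pools, against -2.15, -1.45 and -1.29 in low pools. The high pools averaged 0.76 higher (interval 0.48 to 1.05; limma adjusted p = 0.140) without overlap, one of 5 such genes (0.0273% of genes tested). With array position as a covariate the Cdr2 difference was 0.57, and it was 0.63 within the other positions and 0.50 within columns 2 to 4 of row 2.

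Stra6, the receptor that takes up retinol from its binding protein, ranged from -0.85 to 1.40 with median 0.87 in high pools, against -1.07 to 0.15 with median -0.60 in low pools. The mean difference was 1.37 (0.79 to 1.95; adjusted p = 0.148), and HC4 replicate 4 was the one high pool below 0.68. Its difference was 1.11 with array position as a covariate. Zfp57, which guards imprinted methylation, differed by 0.66 and by 0.58 with the covariate. Pfkfb4, a regulator of glycolytic flux, differed by 0.74 and 0.55, and Kdm3a, a histone H3 lysine demethylase, by 0.33 and 0.28.

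Rhox8, a reproductive homeobox gene of the X chromosome, averaged 6.39 ± 0.51 in high pools and 5.38 ± 0.35 in low pools (SD, n = 8 each). Its difference of 1.01 was 1.15 within the other positions and 0.33 within columns 2 to 4 of row 2. A smaller value inside those positions was also found for Dcc, a netrin receptor gene (1.104 elsewhere and 0.27 inside), Ermn, an actin-binding gene of oligodendrocytes (1.09 and 0.36), and Map4k2, a kinase gene (0.54 and 0.14). The probe of Rassf5, a Ras effector gene, was well above background on 6 of 8 high arrays and on 0 of 8 low arrays. Its mean measured level was -2.84 in high pools and -3.93 in low pools, and no fold is given because the high mean lay below -2.80, the mean over low arrays of the lowest signal well above background.

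Ovch2, an ovochymase, had the smallest p of the genes lower in high pools. Its levels had a lowest, median and highest of -3.98, -2.91 and -2.53 in high pools, against -2.33, -2.09 and -1.78 in low pools. The difference was -0.97 (interval -1.34 to -0.61; limma adjusted p = 0.140) with no overlap, and it was -0.80 with array position as a covariate, -0.31 in the authors' deposited table and -0.20 with normexp and quantile normalization. The probe was well above background on 2 of 8 high and 7 of 8 low arrays. Scgb1b10, a secretoglobin, averaged 1.40 ± 0.18 in 7 high pools, 1 value being left out as an outlier spot, and 1.90 ± 0.17 in 8 low pools (SD), without overlap. Its difference of -0.51 was -0.45 with the covariate, and its paralog Scgb1b3 differed by -0.57 and -0.44 with the covariate. Whether the 2 probes tell these close paralogs apart was not tested.

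Tomt, a catechol O-methyltransferase of hair cells, was at -1.60 ± 0.16 in high pools and -1.05 ± 0.27 in low pools (SD, n = 8 each). Among the 20 genes it had the smallest difference between positions, and its value was -0.55 without and -0.63 with array position as a covariate. Ephb1, an ephrin receptor, differed by -0.98 and by -0.71 with the covariate. Mettl7a3, a methyltransferase-like gene, differed by -0.73 and -0.46, H2-M2, a nonclassical MHC class I gene, by -0.62 and -0.43, and Tgfbr3l by -0.49 and -0.30. Nxph4, a neurexophilin, and Tmem196 differed by -0.50 and -0.47. The limma adjusted p of all 20 genes lay between 0.140 and 0.148, and with the covariate their unadjusted p lay between 1.75e-04 and 0.00610. Those unadjusted values are no independent evidence, since the genes were picked by p from the same arrays. With the covariate the smallest limma adjusted p over all genes tested was 0.630. With normexp and quantile normalization 19 of the 20 had a value, all of the same sign, and 11 of the 19 were smaller by over 1.5 times. In both sets of positions the 20 kept their sign, a description of genes chosen for their difference. The remaining genes without overlap were Snrpd1, a core spliceosome protein, at 0.18 and Arid3b, a DNA-binding protein, at -0.26; both were chosen after their values were seen.

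**Figure D4:**
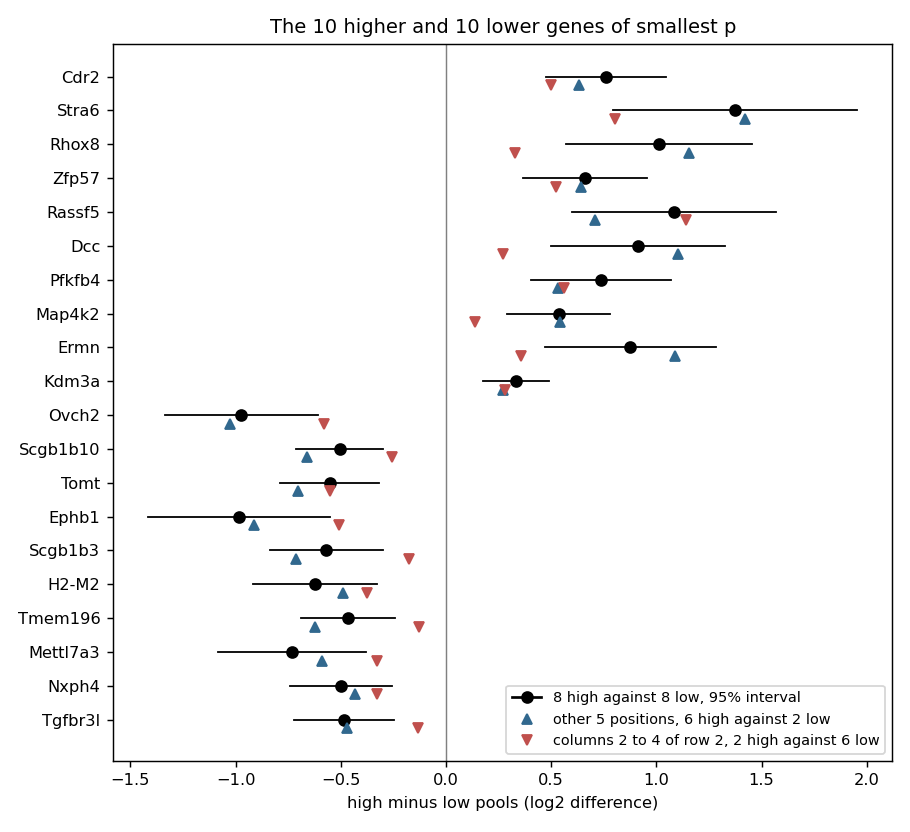
Difference between high and low pools (log2) for the 10 higher and 10 lower genes of smallest p, with 95% intervals (black, 8 against 8), and within the other 5 positions (6 high against 2 low) and columns 2 to 4 of row 2 (2 high against 6 low). Stra6 (1.37) and Ephb1 (-0.98) mark the extremes, and the values within columns 2 to 4 of row 2 are often nearest to 0.

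Genes that tracked Hspa1a most closely over all 24 pools, among those well above background on every array, were named as a description. The highest Pearson r values were those of Cdca3 (0.799), Nelfa (0.773), Espl1 (0.766), Aspm (0.762) and Ss18 (0.752). Cdca3 and Espl1 act at mitotic entry and sister chromatid separation, Aspm at spindle poles, Nelfa in RNA polymerase pausing and Ss18 in chromatin remodelling. The lowest were those of Hadha (-0.778), Mettl7a3 (-0.776), Krtap5-4 (-0.776), Selenon (-0.776) and Sirpb1a (-0.771). The 24 pools also share array position and condition code. Cdca3, for example, averaged 4.11 ± 0.17 in high pools and 3.80 ± 0.14 in low pools (SD, n = 8 each), a difference of 0.31 that was 0.18 with array position as a covariate.

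Among stress genes outside the heat shock lists, 0 members were called in any list. Atf3, a stress-induced transcription factor, had a lowest, median and highest level of -2.42, -1.11 and -0.76 in high pools, against -2.89, -2.18 and -1.52 in low pools. The high pools averaged 0.87 higher (interval 0.32 to 1.41; limma adjusted p = 0.157), with 7 low pools because the outlier flag removed 1 value. Of the high pools 5 of 8 lay above every low pool measured. Atf3 differed little between positions (-0.19), and with position as a covariate its difference was 0.97. Ddit3 (Chop), another factor of the integrated stress response, averaged 1.097 ± 0.36 in high pools and 1.499 ± 0.40 in low pools (SD, n = 8 each), a difference of -0.40 that was -0.20 with the covariate. Of the 22 integrated stress response genes measured, 5 were higher and 17 lower in the high pools, with a median of -0.10, and with position as a covariate the median was -0.01.

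The unfolded protein response of the endoplasmic reticulum had 14 of 20 genes higher with a median of 0.05 and none at unadjusted p under 0.05. Its genes Pdia6, a disulfide isomerase, and Xbp1, the spliced transcription factor, differed by 0.20 and 0.15, and by 0.06 and 0.02 with array position as a covariate. Of the 19 Nrf2 antioxidant genes, 14 were higher (median 0.08), led by Srxn1, sulfiredoxin, at 0.39 and Txn1, thioredoxin, at 0.22. In the position contrast 9 of the 19 were called, beside 28.6% of all genes tested. With the covariate 10 of 19 were higher with a median of 0.00. Of the 20 p53 targets 12 were higher. Bax, a pore-forming apoptosis protein, at 0.29 and Pmaip1 (Noxa) at 0.36 had an unadjusted p under 0.05, 2 of 20 members beside 7.99% of all genes tested. With the covariate 0 were higher and 1 was lower at that threshold.

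Immediate early genes, switched on within minutes of a stimulus, had 15 of 18 members higher with a median of 0.14. Fos differed by 0.62 (interval 0.02 to 1.22) and by 0.40 with array position as a covariate. Maff, a small Maf factor, differed by 0.86 (-0.18 to 1.90) with the high pool HC4 replicate 4 at 1.63 and the other 7 at or below -1.44, against -3.11 to -1.004 in low pools. Without that pool the Maff difference was 0.41. Proteasome subunits were higher in 24 of 31 cases with a median of 0.08. Between positions 15 of the 31 were called, beside 28.6% of all genes tested. With the covariate 17 of 31 were higher and the median was 0.00.

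Metabolic lists showed the same pattern of small medians. In glycolysis and hypoxia, 9 of 23 genes were higher. Ankrd37, a hypoxia target, averaged -1.86 ± 0.61 in high pools and -2.54 ± 0.18 in low pools (SD, n = 8 each), a difference of 0.67 (interval 0.22 to 1.12; limma adjusted p = 0.166) and 0.90 with array position as a covariate. HC3 replicate 4, a high pool inside columns 2 to 4 of row 2, was at -0.51 for Ankrd37, and without it the difference was 0.48, or 0.53 with the covariate. Hk1, the first enzyme of glycolysis, differed by 0.27 and Aldoa, its aldolase, by -0.19. Srebf2, the master activator of cholesterol synthesis genes, averaged 1.55 ± 0.24 in high pools and 1.97 ± 0.16 in low pools (SD, n = 8 each), a difference of -0.42 that was -0.30 with the covariate. Its targets Nsdhl and Sqle differed the other way, by 0.32 and 0.18, and by 0.01 and 0.03 with the covariate. Of 49 ribosomal protein genes 32 were higher (median 0.04), with Rplp1 at 0.19 and Rps7 at 0.14. Of 31 cell cycle and replication genes 23 were higher (median 0.11), with Mcm3, a helicase subunit, at 0.21 and Bub1, a checkpoint kinase, at 0.16.

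The pools carried the defining lineage markers of blastocysts in both groups. Cdx2, the trophectoderm factor, averaged 4.84 ± 0.26 in high pools and 4.92 ± 0.34 in low pools (SD, n = 8 each; difference -0.09, interval -0.40 to 0.23). Pou5f1 averaged 3.16 ± 0.16 in high pools and 3.22 ± 0.35 in low pools, and Nanog 0.74 ± 0.38 in high pools and 0.59 ± 0.30 in low pools; both are pluripotency factors of the inner cell mass. Gata6 and Gata4, primitive endoderm factors, differed by 0.10 (-0.12 to 0.33) and -0.10 (-0.53 to 0.33). In a pool, fewer cells of a type and less RNA per cell cannot be told apart.

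Epiblast and pluripotency genes had 15 of 20 members higher with a median of 0.12. Sox2 ranged from 1.16 to 1.81 in high pools, against 0.69 to 1.52 in low pools, and its mean difference was 0.35 (interval 0.10 to 0.60; limma adjusted p = 0.184). Prdm14, which holds cells in naive pluripotency, averaged -0.86 ± 0.52 in high pools and -1.87 ± 0.56 in low pools (SD, n = 8 each), a difference of 1.00. Prdm14 was 1.25 lower in columns 2 to 4 of row 2 than elsewhere, and its difference with position as a covariate was 0.56. Fgf4, the signal from epiblast to its neighbours, differed by 0.23 and by 0.25 with the covariate. Tdgf1, a Nodal co-receptor, differed by 0.77 and by -0.04 with the covariate, and was 1.40 lower in those positions. Trophectoderm genes had 8 of 20 higher (median -0.07), with Krt8 at -0.17, Klf5 at -0.15 and Id2, a helix-loop-helix inhibitor, at 0.20 (0.05 with the covariate).

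Two-cell stage genes had the largest list median, 0.56 over 10 genes with 8 higher, but 3 of the genes on that list were well above background on at least 6 high arrays and 3 on at least 6 low arrays. Without the HC6 pools that median was -0.34, and with normexp and quantile normalization it was 0.28. Zscan4b, a marker of that stage, was well above background on 2 of 8 high and 0 of 8 low arrays. Its highest level was 3.62 in high pools, in HC6 replicate 3, and -3.79 in low pools. Its mean measured level was -3.77 in high pools and -4.95 in low pools, with no fold for the same reason as for Rassf5. Without HC6 replicate 3 the difference of those means was 0.13, against 1.18 with it. The middle pools HC2 replicates 1 and 4 stood at -0.85 and -1.32, above every other high pool. For markers of other cells, the summed linear level of 16 cumulus and granulosa markers was 17.3 to 36.0 in high pools and 24.4 to 43.7 in low pools, with 7 of the 16 on no array, Fshr, Amh and Star among them. Of the 5 cumulus and granulosa markers that passed the background filter, 2 were higher and 3 lower, with a median of -0.16. Foxl2, a granulosa factor, ranged from 4.05 to 5.13 in high pools and from 4.55 to 5.42 in low pools. Its difference of -0.67 was -0.30 with array position as a covariate. Cyp11a1 differed by 0.41, or 0.51 with the covariate. Without HC6 replicate 3 those Cyp11a1 values were 0.05 and 0.25. For 14 blood and immune markers the summed linear level was 28.8 to 39.6 in high pools and 23.8 to 38.1 in low pools. Alas2 was among those on no array. Of the 8 that passed the background filter, 3 were higher and 5 lower, with a median of -0.07. Ptprc, the pan-leukocyte CD45, differed by 0.55, or 0.32 with the covariate, and Cd3e, a T cell receptor subunit, by -0.53, or -0.03 with it. S100a8 and S100a9 differed by 1.09 and 0.92, or 1.00 and 0.83 with the covariate. All low-pool levels of S100a8 were at or below -2.92. The 13 uterine markers summed to 45.5 to 55.0 in high pools and 41.3 to 60.8 in low pools, with 5 on no array. The 8 sperm markers summed to 0.27 to 0.57 in high pools and 0.35 to 1.23 in low pools, with 4 on no array. Their part in the differences above was not tested.

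Sex-linked genes give a view of the share of female and male embryos in a pool. Xist, the RNA that silences one X in female cells, had a lowest, median and highest level of 0.20, 0.60 and 0.99 in high pools, against -1.83, 0.23 and 0.72 in low pools. The high pools averaged 0.69 higher (interval 0.05 to 1.34; limma adjusted p = 0.291), and the ranges overlapped. The low pool HC1 replicate 1 was at -1.83, and without it the Xist difference was 0.44. Xist differed by -0.08 between positions and by 0.83 between Hspa1a groups with position as a covariate. Without HC1 replicate 1 the Xist value with the covariate was 0.27. Among Y-linked genes Ddx3y differed by -0.73, Uty by -0.62, Eif2s3y by -0.10 and Kdm5d by 0.37, with all 4 intervals including 0. With array position as a covariate these values were -1.13, -0.46, -0.28 and 0.03. In that fit 1 of the 5 sex-linked genes was higher and 1 lower at unadjusted p under 0.05 (limma), beside 2.89% and 3.41% of all genes tested. Of the 5 sex-linked genes, 3 were well above background on at least 6 high arrays and 2 on at least 6 low arrays. Without the low pool HC3 replicate 3, at 0.48, the Uty difference was -0.28. The sex ratio of a pool is not given in the sources used here.

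**Figure D5:**
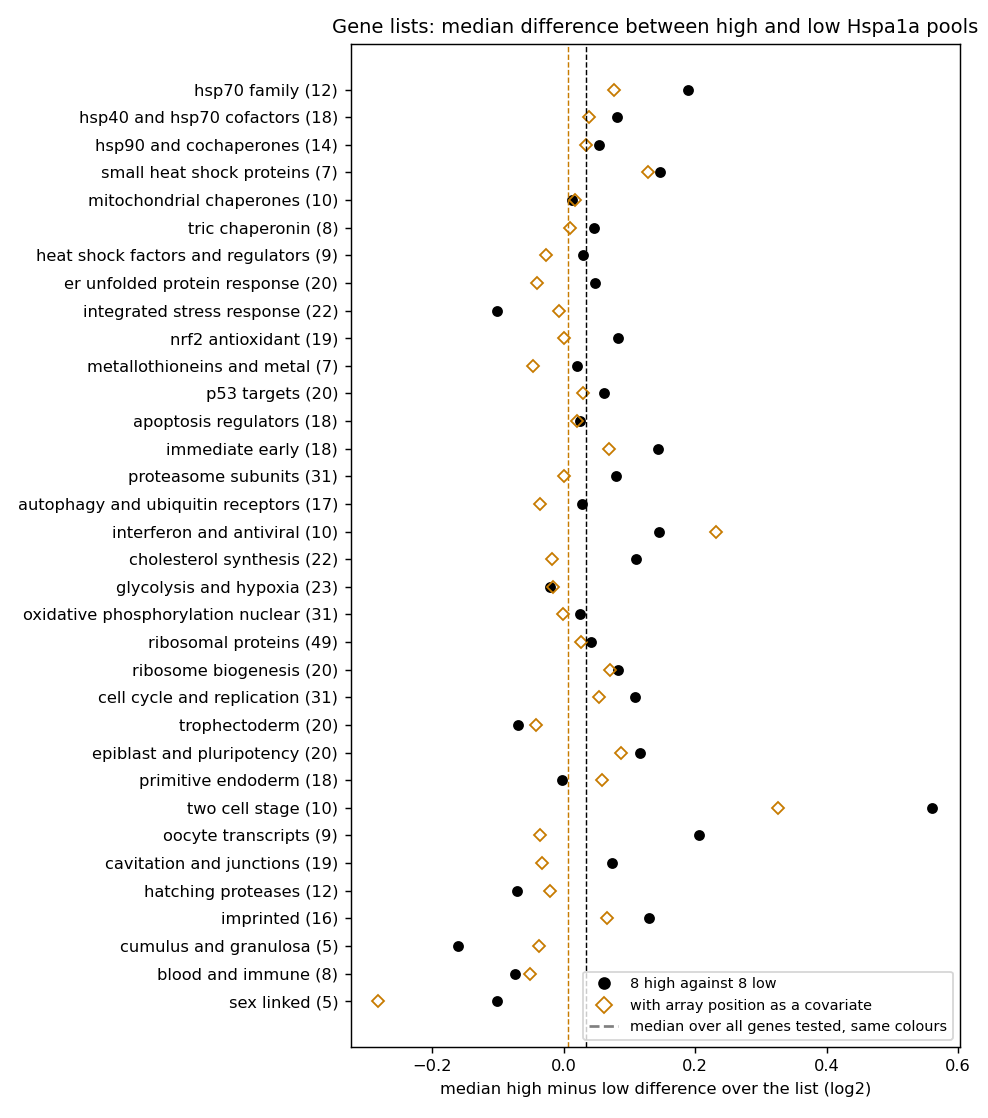
Median high minus low difference (log2) over each gene list with at least 5 measured members (number in brackets), for 8 high against 8 low pools (black) and with array position as a covariate (diamonds); dashed lines are the medians over all genes tested. Most lists lie within 0.2 of 0, and the two-cell stage list, of mostly dim genes, is at 0.56 and 0.33 (-0.34 without the HC6 pools, not drawn).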

How the data were processed

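Total RNA from 24 pools of frozen mouse blastocysts, 2 ng per pool, was labelled with Cy3 and hybridised to 1 array each, per the labels' protocols. Spot intensity and 0 or 1 flags in the deposited scanner files were made with Agilent Feature Extraction (version 10.10.1.1 in the headers). By those headers, background subtraction and detrending within each array gave the processed intensity. The authors' deposited table holds log2 values, used as an alternative; its normalization is not given in the sources used here (column medians 7.00 to 7.01).

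Control and outlier spots were left out, processed intensity was put on the log2 scale, and each array's own 75th percentile was taken away. Kept were probes flagged well above background on 4 or more of 24 arrays with 4 or more values in each group. The brightest probe stood for a gene (18397 genes). The 8 high and 8 low pools were compared with limma 3.58.1 in R 4.3.3 (lmFit, eBayes), with Benjamini-Hochberg adjustment at 0.05 over 18318 genes outside 7 heat shock lists. Python 3.11.15 read the files. The code was tested on simulated arrays. Array-wide measures used exact permutation tests.

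Members and gene lists were chosen with earlier results of these data known. Named genes were Hspa1a with 12 heat shock genes, the 10 of smallest p per direction, the 5 of highest and lowest correlation, up to 4 of smallest p per list, 6 lineage factors and 5 sex-linked genes. Features known only by accession, clone or Gm number were not named. Replicate numbers were not used to pair the pools: no sample label ties them to a shared batch. Number and slide were linked, however: every replicate 1 pool lay on slide 1 and every replicate 4 pool on slide 3. Replicate 2 pools lay on slides 1 and 2, and replicate 3 pools on slides 2 and 3. The correlation of deviations from condition means was over 0.1 in 29 of 60 same-numbered pairs, short of every pair (-0.484 to 0.501, median 0.05). Alternatives covered normalization, filters, covariates, slides and left-out pools. Array position was taken from the names of the scanner files, and its use was chosen after seeing the data.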

Additional observations from a re-analysis of the deposited data

Results flagged for a closer look

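A single pool stood far from the rest of its group (Dixon's test) in 6 of 88 groups checked; chance gives about 1 in 20. Hspa1a itself did so in HC4, where replicate 2 stood at 1.87 and the next pool at 0.31. In the high pools, Stra6 in HC4 replicate 4 was at -0.85 and the nearest pool at 0.68. In the low pools, Hspe1 in HC2 replicate 2 was at 6.47 and the nearest pool at 6.65. Also in the low pools, Cdx2 in HC5 replicate 4 was at 5.67 with the nearest pool at 5, and Gata6 in the same pool was at 3.90 against 4.25. Gata4 in HC5 replicate 3, another low pool, was at 0.17 with the nearest pool at 0.98.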

How the results depend on the processing

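No computed value of the 20 leading genes changed sign under the alternatives run (Scgb1b10 had no value with normexp and quantile normalization), and calls appeared under some. These genes were picked by p from the same arrays, so their constant sign is no independent evidence. Among heat shock genes, which were not tested, Hsph1, Dnajb1, Hsp90aa1, Hspa8, Hspb1, Hspd1, Bag3, Hspa4l, Hsf1 and Hsf2 changed sign under at least 1 alternative, mostly within a slide or within the positions outside columns 2 to 4 of row 2. The replicate block gave 120 higher and 234 lower calls, a hint from the data being that 14 of 24 pools correlated best with a pool of their own number. Array weights gave 419 and 570 calls. Leaving out 1 pool gave 0 to 83 higher and 0 to 124 lower calls, all of them without HC4 replicate 4. Within slide 2, where the 3 high pools lay outside and the 3 low pools inside columns 2 to 4 of row 2, 191 and 210 genes were called; slides 1 and 3 gave 0. With the Hspa1a level as a number over 24 arrays, 1110 and 1114 genes were called, and, in fits added after seeing the data, 1013 and 1280 with normexp and quantile normalization, 844 and 1347 in the authors' table, 1132 and 1144 with slide, 1833 and 1420 with the replicate block, 292 and 484 with the share of spots well above background and 1 and 4 with condition. The cause of these differences was not tested.

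The 8 against 8 comparison gave 0 calls under the other normalizations, filters and probe rules, with condition, slide or slide row, without HC6 (smallest adjusted p 0.823) and, added later, without the 3 highest pools (0.775), within either set of positions (0.269 outside and 0.220 inside) and with array position (0.630). Genes at unadjusted p under 0.05 split 1464 higher to 1386 lower, against 1114 to 1648 with the percentile over probes detected on all arrays and 1251 to 4700 with no background filter. Groups re-formed from the authors' value were the same 8 and 8. Re-ranking by the mean of Hspa1a probes was not run because the array holds 1 such probe. Dim probes limit the size of the differences of Hspa1a, Dnaja4, Hspb9, Hspa12a, Ovch2, Rassf5 and Zscan4b, and of some sex-linked genes.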
